A study of Mus musculus with 3 samples.

Results

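Within retinal vascular cells of mice at postnatal day 6, single endothelial cells (ECs) that express *Six3* were followed in 3 droplet libraries. A cell was kept with at least 1000 UMIs (unique molecular identifiers, each marking 1 captured transcript) and at most 15% mitochondrial UMIs. It was called endothelial with at least 10 UMIs per 10000 summed over *Pecam1*, *Cdh5*, *Egfl7*, *Esam*, *Tie1*, *Eng*, *Ecscr* and *Flt1*, at least 3 of them detected, and fewer than 5 per 10000 over the microglia genes *C1qa*, *Cx3cr1* and *Csf1r*. Members were selected on their *Six3* counts, with at least 2 *Six3* UMIs and at least 3 per 10000. They also had to hold fewer than 5 per 10000 of *Plvap*, a gene of fenestrated and immature vessels, and fewer than 3 per 10000 summed over the cycling genes *Top2a*, *Mki67* and *Cenpf*. This gave 453 cells of 33528 barcodes, of which 446 came from the knockout libraries. The comparison set was ECs of the same library with no *Six3* UMI (Six3-0 ECs), and they were not held to the *Plvap* and cycling limits.

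The WT library came from wild-type mice and the *Tspan12* KO library from mice with a knockout of *Tspan12*. The *Ctnnb1* cKO library came from mice with loxP-flanked *Ctnnb1* and *Pdgfb*-iCreER. This Cre is switched on by tamoxifen, injected in the first days of life, in cells using the *Pdgfb* promoter. The background strain was C57BL/6 throughout, males and females were used, each library pooled the retinas of several mice of 1 genotype, and the WT mice came from other litters than the knockout mice. Whether WT or *Tspan12* KO pups received tamoxifen is not given in the sources used here. Cells were enriched with beads against CD31 and CD11b, so ECs and microglia were captured beside other retinal cells. With 1 library per genotype, genotype and library cannot be told apart, and cells of a library are not replicates. No p-value is therefore given, and the 95% intervals reflect counting error only, not the spread between mice.

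*Six3* encodes a homeodomain factor related to fly sine oculis that patterns the forebrain and the eye field and stays on in retinal progenitors and some retinal neurons. It is not a usual endothelial marker. Retinal vessels depend on Norrin, a ligand from Müller glia that signals through FZD4, LRP5 and the coreceptor TSPAN12 to β-catenin (*Ctnnb1*), which acts with TCF/LEF factors. This signal induces barrier genes and restrains the fenestration gene *Plvap*. *Six3os1* is a long noncoding RNA gene beside *Six3*. *Slco1a4* encodes an organic anion transporter of brain capillaries and *Aqp1* a water channel of peripheral and fenestrated capillaries.

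The 2 genes start 2438 bases apart on opposite strands of chromosome 17, and the 250 bases before each start are shown because *Six3os1* had the largest excess in Six3-expressing ECs when genes were ranked by the smaller of their 2 knockout ratios. The sequences are RefSeq's on build GRCm38.p6, at chr17:85620584-85620833 on the plus strand for *Six3* and chr17:85618397-85618646 on the minus strand for *Six3os1*, written 5′ to 3′. Capitals mark CCAAT on either strand, a motif that was chosen after the sequences had been read.
Six3: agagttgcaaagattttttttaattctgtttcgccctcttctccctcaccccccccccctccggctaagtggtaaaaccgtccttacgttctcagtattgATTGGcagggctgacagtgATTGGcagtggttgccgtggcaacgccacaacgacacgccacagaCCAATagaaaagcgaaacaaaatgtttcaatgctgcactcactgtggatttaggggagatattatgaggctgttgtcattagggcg
Six3os1: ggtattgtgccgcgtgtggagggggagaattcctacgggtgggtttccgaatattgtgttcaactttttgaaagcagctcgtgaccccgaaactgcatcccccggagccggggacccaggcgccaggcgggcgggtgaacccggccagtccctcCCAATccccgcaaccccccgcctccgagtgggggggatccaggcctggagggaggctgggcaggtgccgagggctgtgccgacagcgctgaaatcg
The *Six3* window held 3 matches to CCAAT and the *Six3os1* window 1. Of 32851 RefSeq windows of this length 33.8% held at least 1 match and 2.79% at least 3. The TCF/LEF core CTTTGA, searched on both strands, had 0 matches in either window and was present in 13.8% of all windows. A match or its absence describes these letters only.

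Six3-expressing ECs were rare in the WT library and frequent in both knockout libraries. They were 7 of 596 WT ECs, or 1.17% (0.473 to 2.40%, exact binomial), 40 of 401 *Tspan12* KO ECs, or 9.98% (7.22 to 13.3%), and 406 of 2204 *Ctnnb1* cKO ECs, or 18.4% (16.8 to 20.1%). The 3 intervals did not overlap. Median UMIs per EC were 16153.5, 17437 and 4128.5 in the same order. Microglia, which should lack *Six3*, passed the same *Six3*, *Plvap* and cycling limits in 2.16% of 324 WT cells, 0.862% of 464 *Tspan12* KO cells and 3.12% of 2529 *Ctnnb1* cKO cells, at median UMIs of 9818, 7768 and 3099. The WT share of ECs lay within the interval of WT microglia (0.873 to 4.40%), while both knockout shares lay above all 3 microglial intervals. These shares rest on the *Six3* counts that the rule used, so they describe the selection and are no support for it. The intervals reflect counting error in 1 library per genotype, and depth differed between libraries and cell types.

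**Figure D1:**
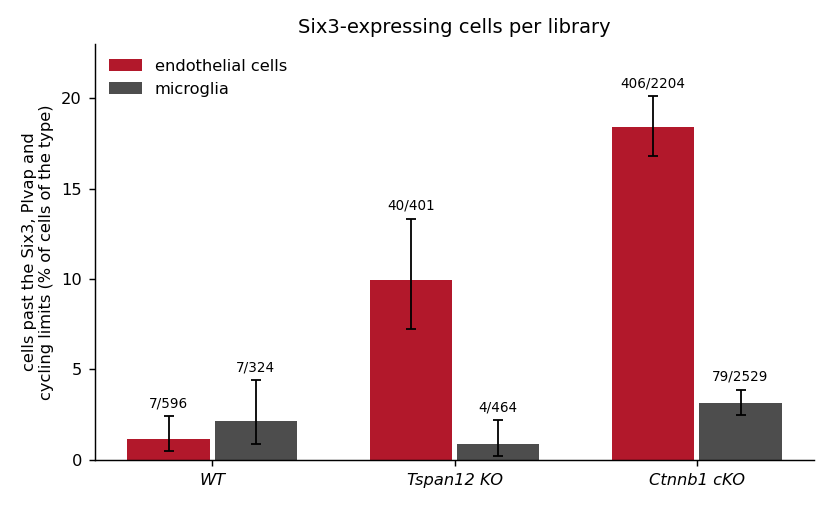
Percentage of endothelial cells (red) and of microglia (grey) past the *Six3*, *Plvap* and cycling limits in each library, on a linear axis from 0. Bars are the shares, whiskers exact 95% binomial intervals, and the numbers above give cells past the limits over all cells of the type. The WT bars are 1.17% and 2.16%, and the endothelial bars of the knockout libraries are 9.98% and 18.4%.

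The *Plvap* and cycling limits took out a part of the ECs that met both *Six3* limits. Those limits alone held for 10 WT, 59 *Tspan12* KO and 698 *Ctnnb1* cKO ECs. Of the 59, 11 were over the *Plvap* limit, 9 over the cycling limit and 1 over both. Of the 698, 166 were over the first, 143 over the second and 17 over both. Members held 2 to 24 *Six3* UMIs with a median of 8 in the *Tspan12* KO library and 2 to 61 with a median of 4 in the *Ctnnb1* cKO library, where 106 of the 406 had just 2 UMIs. Just inside the limit, 20 *Tspan12* KO and 29 *Ctnnb1* cKO members held 3 to 4 *Six3* UMIs per 10000, with medians of 3.31 and 3.40. Just outside it, 15 and 30 cells with at least 2 UMIs held 2 to 3 per 10000, with medians of 2.62 and 2.59. A further 105 *Ctnnb1* cKO ECs were past 3 per 10000 on a single UMI and were not members.

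Depth differed between members and Six3-0 ECs. Median UMIs were 21235.5 against 8406 in the *Tspan12* KO library, 4940.5 against 3451.5 in the *Ctnnb1* cKO library, and 7522 against 13094 in the WT library. When every cell was thinned to 2000 UMIs and *Six3* had to reach 2 UMIs there, a limit of 10 per 10000, 0 of 586 WT ECs (which allows up to 0.512%), 6 of 374 *Tspan12* KO ECs (1.60%) and 136 of 1821 *Ctnnb1* cKO ECs (7.47%) passed, with 10, 27 and 383 shallower cells left out. With any *Six3* UMI counted and no thinning, the shares of ECs were 25.3% (WT), 44.4% (*Tspan12* KO) and 48.5% (*Ctnnb1* cKO), and those of microglia 18.5%, 21.8% and 13.4%. Libraries shared 21 to 37 barcodes in pairs, and at most 1 member of a library had its barcode in another library.

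Endothelial genes that the rule did not use were present in the members. A list of 15, such as *Kdr*, *Tek* and *Erg*, summed to 7956 CPM (UMIs per 1000000) in *Tspan12* KO members against 6603 in Six3-0 ECs and 212 in microglia. It summed to 6892 against 6357 and 469 in *Ctnnb1* cKO, and to 2689 against 9042 and 332 in WT. The 8 endothelial genes that selected the cells summed to a median of 66.5 per 10000 in *Tspan12* KO and 59.9 in *Ctnnb1* cKO members, against 50.5 and 55.6 in Six3-0 ECs. In the 7 WT members the median was 12.1 against 54.6. A sum over rod markers and factors of retinal neurons and progenitors, among them *Pax6*, *Six6*, *Rax* and *Otx2*, had a median of 15.4 per 10000 in the WT members against 3.31 in WT Six3-0 ECs. It was 4.66 against 4.93 in the *Tspan12* KO library and 1.26 against 1.06 in the *Ctnnb1* cKO library. Summed over cells, eye field and progenitor genes were at 718 against 384 CPM in *Tspan12* KO and at 555 against 279.5 in *Ctnnb1* cKO. Rod markers were at 753 against 482 and 607 against 218 CPM. Both sums of retinal genes were thus higher in members of both knockout libraries. Their part in the results was not tested.

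*Six3* was also set beside other genes of retinal neurons. In cells that were neither ECs nor microglia the WT library had 2.08 *Six3* UMIs per *Pax6* UMI, the *Tspan12* KO library 2.06 and the *Ctnnb1* cKO library 2.55. Microglia had 2.34, 2.14 and 2.40, and all WT ECs 1.76. All ECs of the knockout libraries, which were not chosen by *Six3*, had 10.1 in *Tspan12* KO (1171 *Six3* and 116 *Pax6* UMIs) and 21.9 in *Ctnnb1* cKO (4162 and 190). Members, chosen by *Six3*, had 1.95, 21.3 and 44.7 in the same order of libraries, while the 109 *Ctnnb1* cKO microglia and 1059 other *Ctnnb1* cKO cells that met the same *Six3* limits had 3.58 and 3.49. The 7 WT microglia that met those limits had 14.5, on 2 *Pax6* UMIs. Against *Six6*, a relative of *Six3* in the eye field, all ECs had 1.62, 6.10 and 29.3, and other cells 1.70, 1.54 and 3.09. Where the *Six3* UMIs of any of these groups came from was not tested.

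**Figure D2:**
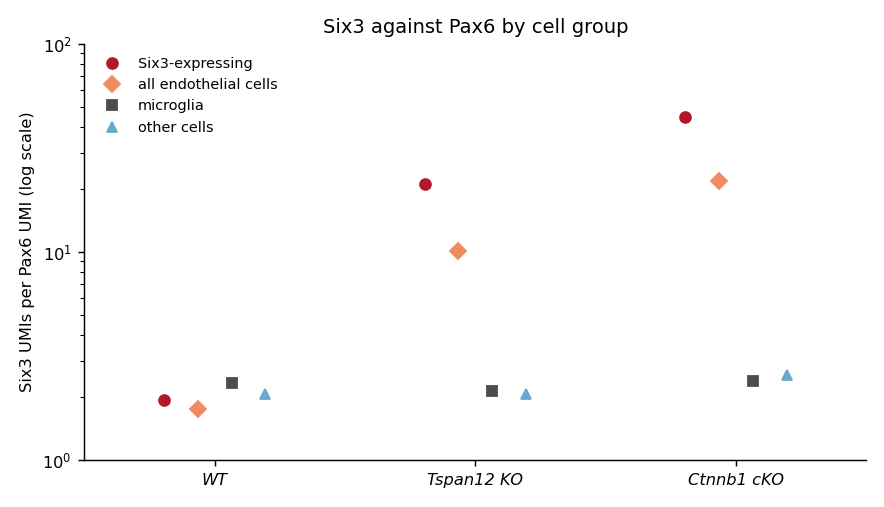
*Six3* UMIs per *Pax6* UMI, on a log axis, in 4 cell groups of each library: Six3-expressing endothelial cells, all endothelial cells, microglia and all other cells, each summed over its cells. Every group of the WT library and the microglia and other cells of the knockout libraries lie between 1.76 and 2.55, and the endothelial groups of the knockout libraries lie between 10.1 and 44.7.

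Against Six3-0 ECs of the same library, members differed by at least 2-fold in a small share of genes. Levels are given as UMIs per 1000000 UMIs of the summed cells (CPM), differences as log2 ratios with exact intervals, and a gene was called when log2 of CPM plus 10 differed by at least 1, among genes with at least 50 UMIs over both sets. In the *Tspan12* KO library 221 of 8850 genes (2.5%) were at least 2-fold higher and 303 (3.42%) at least 2-fold lower. In the *Ctnnb1* cKO library 98 of 10110 genes (0.969%) were higher and 165 (1.63%) lower. Counts for the gene lists below are to be read beside these shares. Of 8709 genes measured in both, 50 (0.574%) were higher and 130 (1.49%) lower in both. The median ratio over all genes was 0.06 and 0.05 on the log2 scale. Ratios with the pseudocount are quoted where a gene is said to come to a value. With Six3-0 ECs held to the *Plvap* and cycling limits as well (125 and 675 cells), 2.2% were higher and 2.16% lower in *Tspan12* KO, and 0.73% and 0.97% in *Ctnnb1* cKO. These limits were part of the rule, so the lower genes are also described against that set.

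*Six3os1* led the genes that were higher in members of both knockout libraries. It stood at 579 (531 to 631) CPM in *Tspan12* KO members against 15.5 (11.8 to 19.99) in Six3-0 ECs, a log2 ratio of 5.22 (4.83 to 5.64), and at 423 (399 to 448) against 58.4 (52.03 to 65.3) in the *Ctnnb1* cKO library, a log2 ratio of 2.86 (2.68 to 3.04). WT Six3-0 ECs had 9.45 CPM and the 7 WT members 13 UMIs, or 129 CPM (68.4 to 219.8). All 40 *Tspan12* KO members and 74.9% of *Ctnnb1* cKO members held a *Six3os1* UMI. At 2000 UMIs per cell, the shares were 72.5% of 40 and 53.6% of 373 members (33 shallower cells left out), 6.57% of 198 and 10.3% of 868 Six3-0 ECs (25 and 266 left out) and 3.89% of 411 and 4.83% of 2132 microglia (53 and 397 left out). Unthinned, they were 18.8% and 18.3% of Six3-0 ECs and 14.4% and 8.34% of microglia. Members held 0.733 *Six3* UMIs per *Six3os1* UMI in *Tspan12* KO and 1.80 in *Ctnnb1* cKO. From the starts shown above, the 2 genes run in opposite directions, away from each other. Whether the counting used strand is not given in the sources used here. Whether reads of either gene were counted for the other was not tested.

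*Aqp1* and *Slco1a4* were higher in members of both knockout libraries. *Aqp1* was at 269 (236 to 305) against 22.1 (17.6 to 27.3) CPM in *Tspan12* KO and at 363 (341 to 386) against 63.3 (56.7 to 70.5) in *Ctnnb1* cKO, log2 ratios of 3.61 (3.24 to 3.98) and 2.52 (2.34 to 2.70). *Slco1a4* was at 153 (128 to 180.2) against 5.78 (3.62 to 8.75) CPM and at 82.9 (72.5 to 94.4) against 17.7 (14.3 to 21.7), log2 ratios of 4.72 (4.07 to 5.44) and 2.22 (1.87 to 2.59). WT Six3-0 ECs had 3.40 and 4.56 CPM of the 2 genes. The 7 WT members held 1 *Aqp1* UMI and 0 *Slco1a4* UMIs, the latter allowing up to 29.7 CPM by a floor of 3 UMIs. In microglia *Aqp1* was detected in 0 of 464 *Tspan12* KO cells, which allows up to 0.647%, and in 4.15% of *Ctnnb1* cKO cells, and *Slco1a4* in 0.216% and 0.554%. Among members the shares were 62.5% and 56.4% for *Aqp1* and 75% and 29.3% for *Slco1a4*. At 2000 UMIs per cell they were 25% and 41.3% for *Aqp1* and 22.5% and 16.9% for *Slco1a4*, against 5.05% and 7.49% and 1.01% and 2.995% of Six3-0 ECs, with the same cells left out as above. Microglia at that depth had 0 of 411 for either gene in *Tspan12* KO, which allows up to 0.730%, and 2.11% and 0.328% in *Ctnnb1* cKO. With the highest doublet scores left out, 36 and 376 members remained, and *Aqp1* came to 3.21 and 2.43 and *Slco1a4* to 3.56 and 1.85. With all cells, on the same scale with 10 CPM added, *Aqp1* was at 3.12 and 2.35 and *Slco1a4* at 3.36 and 1.74.

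Not every member held both genes. Among the 40 *Tspan12* KO members, 23 had UMIs of *Aqp1* and *Slco1a4*, 2 of *Aqp1* alone, 7 of *Slco1a4* alone and 8 of neither. Among the 406 *Ctnnb1* cKO members the numbers were 73, 156, 46 and 131. At 2000 UMIs they were 3, 7, 6 and 24 of 40, and 31, 123, 32 and 187 of 373. Thinning lowers the detection of each gene, so these counts do not show how many members express both. *Aqp1* in single *Ctnnb1* cKO members ran from 0 over a median of 1.95 to 51.9 UMIs per 10000, and *Slco1a4* from 0 over a median of 0 to 19.8. Cells with no *Six3* UMI reached 37.99 and 26.6, so high levels of either gene were also present outside the members.

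Of the other genes that an earlier analysis of these libraries had listed as raised in knockout ECs, *Acer2*, an alkaline ceramidase of the Golgi, was at 291 against 25.7 CPM in *Tspan12* KO and 320.1 against 100.4 in *Ctnnb1* cKO. *Itih5*, a hyaluronan-binding matrix protein, was at 229 against 26.3 and 86.2 against 32.8. *Ramp3*, a coreceptor for adrenomedullin, was not higher in members, at 18.8 against 42.5 and 21.4 against 29.4 CPM. That list was drawn from these libraries, so its direction in all ECs is not independent.

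**Figure D3:**
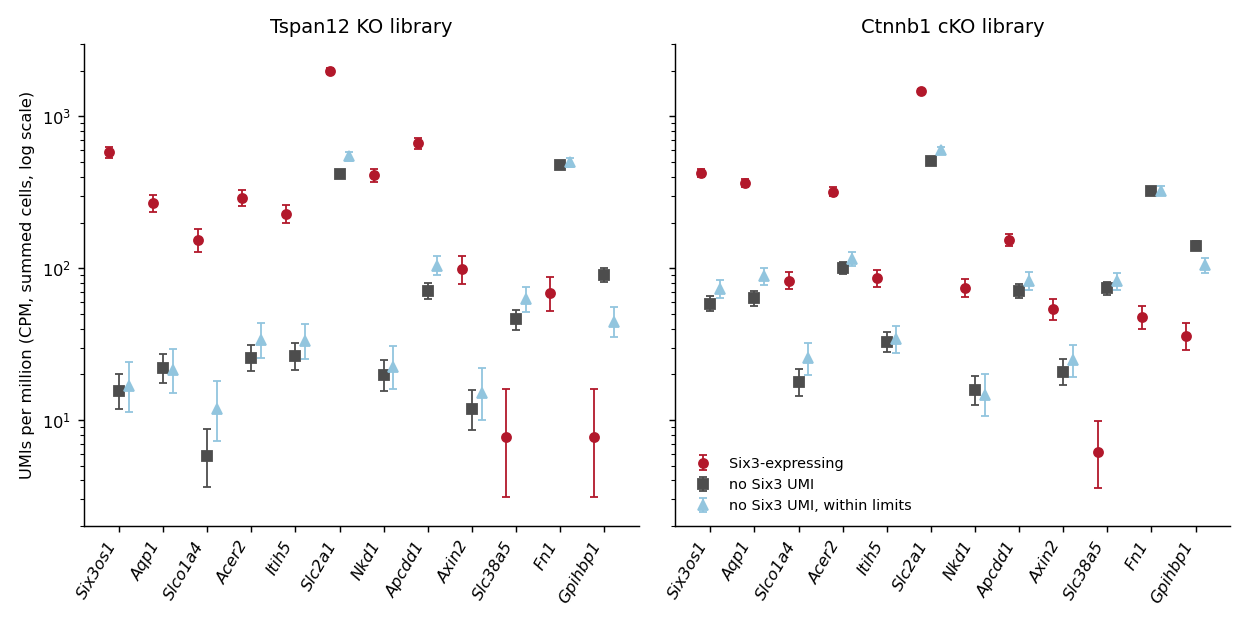
CPM, on a log axis, of 12 genes in Six3-expressing cells (red circles), Six3-0 endothelial cells (grey squares) and Six3-0 cells within the *Plvap* and cycling limits (blue triangles), for the *Tspan12* KO and *Ctnnb1* cKO libraries. Points are sums over cells and whiskers exact 95% Poisson intervals. From *Six3os1* to *Axin2* the members lie above both comparison sets, and for *Slc38a5*, *Fn1* and *Gpihbp1* below them, in both libraries.

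The levels were next ordered by *Six3* with every EC of a library thinned to 2000 UMIs and no other limit applied. In the *Ctnnb1* cKO library, 1165 cells had 0, 345 had 1, 174 had 2 and 137 had 3 or more *Six3* UMIs. *Six3os1* stood at 113, 287, 443 and 445 CPM over these groups. *Aqp1* stood at 119, 314, 362 and 394 CPM. For both genes the interval of the cells with 0 *Six3* UMIs lay below the other 3, whose intervals overlapped for *Aqp1*, while for *Six3os1* that of 1 UMI lay below those of 2 and of 3 or more. *Slco1a4* stood at 25.3, 76.8, 57.5 and 80.3 CPM, with overlapping intervals from 1 UMI on. *Apcdd1*, a Wnt feedback gene, followed no order, at 81.97 (70.8 to 94.46), 132 (106 to 162), 89.1 (60.5 to 126) and 168 (123 to 224) CPM. *Slc38a5* was lower in cells with *Six3* UMIs, at 51.9 (43.1 to 62.1), 20.3 (11.1 to 34.0), 5.75 (0.696 to 20.8) and 0 CPM. The last allows up to 13.5 CPM. The interval of the cells with 0 *Six3* UMIs lay above the others, which overlapped. *Pax6*, a factor of retinal neurons and progenitors, stood at 17.2 (12.3 to 23.4), 14.5 (6.95 to 26.7), 11.5 (3.13 to 29.4) and 0 CPM. The last allows up to 13.5 CPM, and all these intervals overlapped.

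In the *Tspan12* KO library 306 ECs had 0, 44 had 1, 21 had 2 and 3 had 3 or more *Six3* UMIs at that depth. *Aqp1* was at 50.7 (34.4 to 71.9), 216 (129.99 to 337) and 262 (131 to 469) CPM over the first 3 groups. *Apcdd1* was at 150.3 (121 to 184), 420.5 (296 to 579.5) and 738 (502 to 1048), without overlap between cells with 0 *Six3* UMIs and the others. In the WT library 562 ECs had 0, 22 had 1 and 2 had 2 *Six3* UMIs, and *Aqp1* was at 6.23 CPM in the first group and had 0 UMIs in the others, which for the 22 cells allows up to 83.8 CPM. WT cells with 1 *Six3* UMI had 68.2 (14.1 to 199) CPM of *Pax6* against 17.8 (10.9 to 27.5) in those with 0. The first value rested on 3 *Pax6* UMIs, and the intervals overlapped. Of the endothelial claudin *Cldn5* the same cells had 2295 against 4339 CPM.

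**Figure D4:**
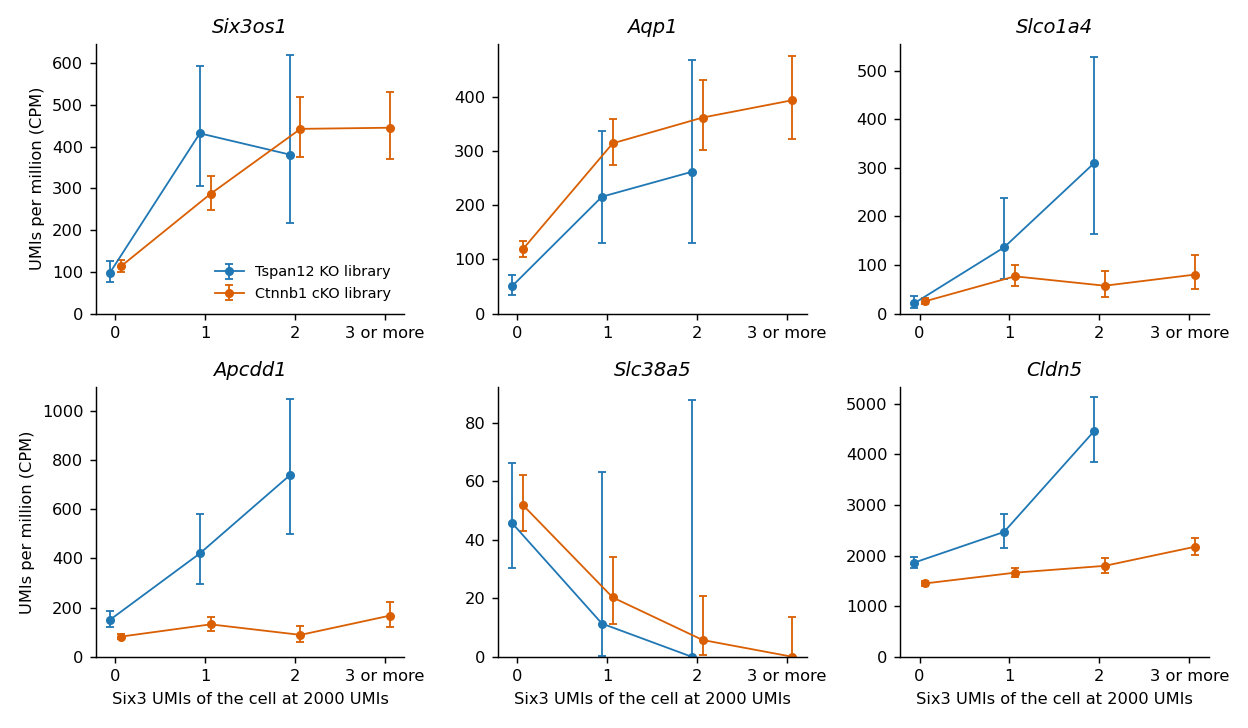
CPM of 6 genes in endothelial cells grouped by the *Six3* UMIs they held after thinning to 2000 UMIs, for the *Tspan12* KO (blue) and *Ctnnb1* cKO (orange) libraries, with linear axes from 0. Points are sums over cells, whiskers exact 95% Poisson intervals, and groups under 20 cells are left out. In the *Ctnnb1* cKO library *Six3os1* and *Aqp1* stand higher and *Slc38a5* lower in the groups with *Six3* UMIs than in the group with 0.

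Some Wnt feedback genes and targets were higher in members. Of 11 listed genes with enough UMIs in *Tspan12* KO, 6 were at least 2-fold higher and 1 lower, with a median log2 ratio of 1.04, and of 12 in *Ctnnb1* cKO 4 were higher and 0 lower, with a median of 0.66. *Nkd1*, which binds Dishevelled, was at 409 (368 to 453) against 19.7 (15.5 to 24.7) CPM in *Tspan12* KO and at 74.6 (64.8 to 85.5) against 15.8 (12.6 to 19.6) in *Ctnnb1* cKO. *Apcdd1*, a membrane inhibitor of Wnt receptors, was at 665 (613 to 721) against 70.6 (62.4 to 79.6) and at 154 (139.6 to 169) against 70.6 (63.6 to 78.2). WT Six3-0 ECs had 167 CPM of *Apcdd1*. *Axin2*, a scaffold of the β-catenin destruction complex, was at 98.4 against 11.8 and 53.6 against 20.8. *Tnfrsf19*, a receptor induced by Wnt, was at 224 against 18.4 and 84.4 against 25.4 CPM.

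Among the rest of the Wnt list, the transcription factor gene *Sp5* was at 43.1 against 2.63 CPM in *Tspan12* KO and 15.6 against 3.24 in *Ctnnb1* cKO, where its log2 ratio with the pseudocount was 0.95. It had fewer than 50 UMIs over both sets in *Tspan12* KO and is not in that count. *Lef1*, a TCF/LEF factor, was at 717 against 228 and 468 against 259 CPM, past 2-fold in the first library only. *Ccnd1*, the cell-cycle target cyclin D1, was lower at 167 against 415 in *Tspan12* KO. With Six3-0 ECs held to the *Plvap* and cycling limits, 5 genes of the list stayed past 2-fold higher in *Tspan12* KO and 2 (*Nkd1* and *Tnfrsf19*) in *Ctnnb1* cKO, where *Axin2* and *Apcdd1* came to 0.87 and 0.82, and the nuclear receptor gene *Ppard* was past 2-fold lower.

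In the receptor complex and its transducers fewer genes were past 2-fold than in the Wnt list above. Of all genes, 2.5% were higher in *Tspan12* KO and 0.969% in *Ctnnb1* cKO. Of 14 genes of the Norrin receptor and Wnt transducers, *Lrp6*, *Lef1* and *Tcf7l2* were past 2-fold higher in *Tspan12* KO members and 0 in *Ctnnb1* cKO members, with medians of 0.27 and 0.19. *Fzd4*, the Norrin receptor, was at 64.1 against 96.6 and 68.8 against 103 CPM, and *Lrp5* at 34.3 against 38.9 and 45.3 against 38.5. UMIs of the targeted genes were present in members, with *Tspan12* at 97.3 CPM in *Tspan12* KO (WT Six3-0 ECs 103) and *Ctnnb1* at 471 CPM in *Ctnnb1* cKO (WT Six3-0 ECs 517). The 3′ ends that this method counts need not lie in the deleted part, so these counts do not check the labels.

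Barrier transporters were split. Of 22 listed genes, 9 were past 2-fold higher and 2 lower in *Tspan12* KO members (median 0.84), and 2 were higher and 3 lower in *Ctnnb1* cKO members (median 0.31). *Slc2a1*, the glucose transporter GLUT1, was at 1989 (1898 to 2083) against 420.4 (400.1 to 442) CPM in *Tspan12* KO and at 1477 (1432 to 1523) against 511 (492 to 531) in *Ctnnb1* cKO, with 676 in WT Six3-0 ECs. *Slc7a5*, the large neutral amino acid transporter LAT1, was at 1662 against 522 and 742 against 406. *Abcb1a*, the efflux pump P-glycoprotein, was at 400.1 against 122 and 349.8 against 187. *Slc40a1*, the iron exporter ferroportin, was at 291 against 62.8 and 80.03 against 44.5 CPM. *Slco1c1*, which carries thyroid hormone, was at 51.95 against 3.15 and 27.5 against 22.3. Of these 5, *Slc2a1* alone was past 2-fold in both libraries, beside *Slco1a4*.

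*Slc38a5*, a glutamine transporter of developing retinal and brain vessels, was lower where *Slc2a1* was higher. It was at 7.74 (3.11 to 15.9) against 45.95 (39.4 to 53.3) CPM in *Tspan12* KO and at 6.16 (3.59 to 9.86) against 73.7 (66.5 to 81.4) in *Ctnnb1* cKO, log2 ratios of -2.57 (-3.91 to -1.50) and -3.58 (-4.38 to -2.88), with 347 CPM in WT Six3-0 ECs. At 2000 UMIs it was detected in 2.5% and 0.804% of members against 9.6% and 10.8% of Six3-0 ECs (10% and 2.46% against 26.5% and 17.7% unthinned). In microglia it was detected in 0 of 411, which allows up to 0.730%, and in 0.375% (0 of 464 and 0.870% unthinned). *Itm2a*, a membrane protein of barrier ECs, was at 176 against 384 and 67.4 against 236, and *Lrp8*, an apolipoprotein E and reelin receptor, at 74.1 against 108 and 42.7 against 110.1 CPM. Against Six3-0 ECs within the limits, *Slc38a5* came to -2.04 and -2.51 and *Itm2a* to -1.50 and -1.80. Against all Six3-0 ECs, on the same scale with 10 CPM added, *Slc38a5* was at -1.66 and -2.37 and *Itm2a* at -1.08 and -1.67. *Mfsd2a*, a lipid transporter that limits transcytosis, was at 133 against 69.9 and 80.03 against 88.5, past 2-fold in neither library.

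Tight junction genes were past 2-fold higher for 2 of 9 in *Tspan12* KO, *Cgnl1* among them, and for 0 of 10 in *Ctnnb1* cKO, with medians of 0.70 and 0.26. *Cldn5*, the main claudin of the barrier, was at 3212 against 1748 and 2091 against 1402 CPM, log2 ratios of 0.88 (0.81 to 0.94) and 0.58 (0.53 to 0.63), with 4049 in WT Six3-0 ECs.

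Tip cell genes are used by the leading cells of sprouts. Of 15 listed genes 8 were past 2-fold lower in *Tspan12* KO (median -1.06) and 5 in *Ctnnb1* cKO (median -0.69), with 0 higher in either. With genes at 0 UMIs in *Tspan12* KO members set to 3 UMIs, 7 were lower and the median was -0.93. *Apln*, the ligand apelin, was at 45.3 against 217 and 43.1 against 157 CPM. *Kcne3*, a potassium channel subunit, had 0 UMIs in *Tspan12* KO members against 64.1 CPM, at least 19.3-fold lower by a floor of 3 UMIs, and 9.42 against 59.9 CPM in *Ctnnb1* cKO. *Trp53i11* was at 36.5 against 153 and 110.1 against 277. Against Six3-0 ECs within the limits, 4 and 6 of the list were past 2-fold lower, among them *Apln*, *Kcne3*, *Trp53i11* and *Lama4* in both libraries. *Esm1* and *Angpt2*, lower in *Tspan12* KO with all Six3-0 ECs, came to -0.67 and -0.88 there. In *Ctnnb1* cKO *Esm1* had a ratio of 0.19 against all Six3-0 ECs.

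Matrix genes differed in both directions. Of 15 basement membrane genes 1 was past 2-fold higher and 4 lower in each library. *Fn1*, fibronectin, was at 68.5 (52.5 to 87.9) against 476 (454 to 498) CPM in *Tspan12* KO and at 47.8 (39.99 to 56.7) against 324 (309 to 339.98) in *Ctnnb1* cKO, log2 ratios of -2.79 (-3.18 to -2.43) and -2.76 (-3.03 to -2.51). The laminin chain genes *Lamb1*, *Lamc1* and *Lama4* were at 84.01, 120.5 and 191 against 310.1, 342 and 436 CPM in *Tspan12* KO, and at 92.7, 163 and 187 against 235, 337 and 445 in *Ctnnb1* cKO. *Col18a1*, collagen XVIII, was higher, at 1798 against 586 and 1241 against 598 CPM. All 4 lower genes stayed past 2-fold lower against Six3-0 ECs within the limits, while *Col18a1* came to 0.86 in *Ctnnb1* cKO.

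**Figure D5:**
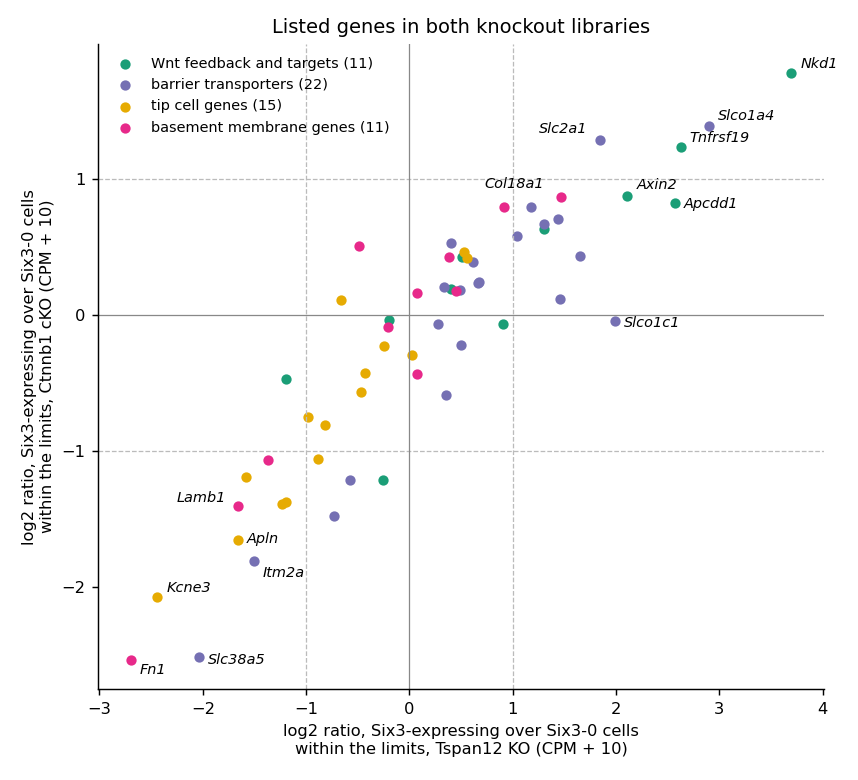
Log2 ratio (CPM plus 10) of Six3-expressing over Six3-0 endothelial cells within the *Plvap* and cycling limits, in the *Tspan12* KO library (horizontal) and the *Ctnnb1* cKO library (vertical), for 4 gene lists, with dashed lines at a 2-fold difference. Each point is a gene with at least 50 UMIs in both libraries and genes on several lists are drawn once, and *Kcne3*, with 0 UMIs in *Tspan12* KO members, is placed by the added 10 CPM alone. *Nkd1*, *Slco1a4*, *Tnfrsf19* and *Slc2a1* lie past 2-fold higher on both axes, and *Fn1*, *Slc38a5*, *Kcne3*, *Itm2a*, *Apln* and *Lamb1* past 2-fold lower.

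Among genes of fenestrated and peripheral capillaries, *Aqp1* and *Cavin2* were the higher ones. Of 15 listed genes 1 was past 2-fold higher and 6 lower in *Tspan12* KO, and 2 were higher and 1 lower in *Ctnnb1* cKO, with medians of -0.70 and -0.44 that include *Plvap*, which the rule limits. *Gpihbp1*, which holds lipoprotein lipase at capillaries, was at 7.74 against 90.9 and 35.9 against 141 CPM. *Igfbp3*, an IGF-binding protein, was at 59.7 against 547 and 537 against 859.6. Against Six3-0 ECs within the limits *Gpihbp1* came to -1.61 and -1.32 and *Igfbp3* to -2.77 and -0.51.

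Markers of arteries, veins and capillaries were past 2-fold in both directions. Of all genes, 2.5% were higher and 3.42% lower in *Tspan12* KO, and 0.969% and 1.63% in *Ctnnb1* cKO. Of the arterial list 0 genes were past 2-fold higher and 2 of 13 and 1 of 15 lower, *Cxcl12* in both libraries at 7.74 against 51.5 and 53.2 against 152 CPM. The connexin *Gja4* was at 148 against 130.2 and 166 against 94.8. Of the venous list 2 of 9 were higher and 1 lower in *Tspan12* KO and 0 and 1 of 11 in *Ctnnb1* cKO. *Nr2f2*, the venous factor COUP-TFII, was the gene lower in both, at 47.5 against 115 and 18.8 against 58.01 CPM. *Icam1*, a leukocyte adhesion molecule, was at 177 against 54.1 and 163 against 93.5. Of 8 capillary genes 2 were higher and 2 lower in *Tspan12* KO and 0 and 1 in *Ctnnb1* cKO. *Spock2*, a matrix proteoglycan, was at 565 against 84.8 and 482 against 265 CPM.

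Transcription factors of ECs were past 2-fold higher for 3 of 25 and lower for 4 in *Tspan12* KO. In *Ctnnb1* cKO 1 of 26 was past 2-fold in each direction. The higher one was *Prox1*, at 1.04 with 10 CPM added, which is also on the list of amacrine markers below. Its ratio fell under 2-fold in 6 of 12 alternatives. *Foxq1* and *Foxc1*, forkhead factors of brain and retinal ECs, were at 421 against 183 and 171 against 70.9 CPM in *Tspan12* KO and at 235 against 176 and 47.4 against 32.1 in *Ctnnb1* cKO. *Tbx1*, a T-box factor, was at 151 against 51.2 and 130.4 against 67.2, and *Meox1*, a homeobox factor, at 42.00 against 149 and 45.99 against 97.9 CPM. Against Six3-0 ECs within the limits, *Tbx1* was the factor still past 2-fold higher in *Tspan12* KO, and *Foxq1* and *Foxc1* came to 0.79 and 0.97. Of the sine oculis, Eya and Dach families, which work together in the eye, *Six3* and *Six3os1* aside, 0 genes were higher. *Six6* was at 15.5 against 13.1 and 14.1 against 7.44 CPM, and *Dach1* at 122 against 159.7 and 32.95 against 99.4, past 2-fold lower in the second.

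The genes with the largest excess in both libraries, ranked by the smaller of the 2 ratios, ran after *Six3os1* and *Aqp1* to *Elovl7*, *Slco1a4*, *Nkd1*, *Cacna1a*, *Arl15*, *Acer2*, *Tmeff1*, *Slc2a1*, *Tril*, *Nlgn1*, *Bpgm*, *Cx3cl1* and *Tnfrsf19*. *Elovl7*, a fatty acid elongase, was at 92.8 against 9.19 and 79.3 against 15.6 CPM. *Cacna1a*, a calcium channel subunit, was at 245 against 24.4 and 139 against 38.4. *Arl15*, a small GTPase, was at 1344 against 320.1 and 1234 against 402. *Bpgm*, which makes bisphosphoglycerate, was at 192 against 62.8 and 112 against 32.6, and *Cx3cl1*, the ligand fractalkine, at 46.4 against 10.8 and 52.5 against 12.4 CPM. *Tril*, an accessory of Toll-like receptors, was at 262 against 62.2 and 178 against 57.1. All 15 stayed past 2-fold higher in both libraries against Six3-0 ECs within the limits. *Nlgn1*, a synaptic adhesion gene, was at 289.6 against 97.4 in *Tspan12* KO, but its ratio was -0.27 once the cells with the highest doublet scores, 4 members and 19 Six3-0 ECs, were left out.

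Of the 10 genes with the largest deficit in both libraries, *Ube2c*, *Birc5*, *Prc1*, *Pclaf* and *Tpx2* are genes of dividing cells, which the rule's cycling limit takes out of the members alone. Against Six3-0 ECs within the limits they came to between -1.96 and -0.52 in *Tspan12* KO and between -0.72 and -0.15 in *Ctnnb1* cKO. The other 5 kept a deficit past 2-fold. *Cdh13*, T-cadherin, was at 36.5 (25.1 to 51.2) against 473 (452 to 496) CPM in *Tspan12* KO and 60.1 (51.3 to 69.98) against 462 (444 to 481) in *Ctnnb1* cKO, and at 517 and 527 in Six3-0 ECs within the limits. *S100a6*, a calcium-binding protein, was at 16.6 against 648 and 84.7 against 462. *Tgfbi*, a matrix protein induced by TGF-β, was at 6.63 against 97.4 and 17.02 against 106, and *Pcdh17*, a protocadherin, at 43.1 against 298 and 33.7 against 166 CPM. Against Six3-0 ECs within the limits, *S100a6* came to -4.23 and -2.01, *Tgfbi* to -2.63 and -2.07, and *Pcdh17* to -2.52 and -2.01. The fifth was *Fn1*. Over both libraries, 55 of the 130 lower genes and 29 of the 50 higher genes stayed past 2-fold against Six3-0 ECs within the limits.

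Members of the 2 knockout libraries were then set beside each other. *Nkd1* was at 74.6 CPM in *Ctnnb1* cKO members and 409 in *Tspan12* KO members, a log2 ratio of -2.45 (-2.71 to -2.21), and *Apcdd1* at 154 and 665, a log2 ratio of -2.11 (-2.29 to -1.93). In Six3-0 ECs the same ratio was -0.31 (-0.78 to 0.16) for *Nkd1* and between -0.23 and 0.23 for *Apcdd1*. Between members it was -0.88 (-1.27 to -0.48) for *Axin2*, -0.62 (-0.75 to -0.48) for *Lef1* and -0.88 (-1.19 to -0.56) for *Slco1a4*, lower in *Ctnnb1* cKO. It was 0.44 (0.23 to 0.64) for *Aqp1*, and for *Acer2*, at 0.14 (-0.06 to 0.34), the interval included 0. In Six3-0 ECs both *Slco1a4*, at 1.62 (0.94 to 2.36), and *Aqp1*, at 1.52 (1.17 to 1.89), were higher in *Ctnnb1* cKO. Members of the 2 libraries also differed in depth, with the medians of 21235.5 and 4940.5 UMIs given above, and the part of depth in these differences was not tested.

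Immediate early genes, which many cells induce during tissue dissociation, were higher in *Tspan12* KO members. There 9 of 13 were past 2-fold higher (median 1.36, and 8 of 13 within the limits), with *Junb* at 1470.1 against 419.9 and *Egr1* at 948 against 246 CPM. In *Ctnnb1* cKO members 0 of 14 were (median 0.44). Their part in the other differences was not tested. Interferon-stimulated genes were past 2-fold higher for 2 of 7 in *Tspan12* KO and 0 of 16 in *Ctnnb1* cKO. The MHC class I and flow-responsive lists had 0 genes past 2-fold in either library, and the list of hypoxia and glycolysis had *Ankrd37* lower of 10 and of 11. Of 4 genes that an earlier analysis had listed as lost in both knockout endothelia, *Slc38a5* was the 1 past 2-fold lower in each library. Against Six3-0 ECs within the limits, *Angptl4* was past 2-fold lower as well in both. Other endothelial genes had 1 of 15 higher in *Tspan12* KO and 0 in *Ctnnb1* cKO.

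Markers of other cell types were checked in the same sums. Rod markers summed to 753 CPM in *Tspan12* KO members against 482 in Six3-0 ECs and 6703 in other cells, with 0 of 9 past 2-fold. In *Ctnnb1* cKO they summed to 607 against 218 and 4273, with 6 of 9 past 2-fold higher. Cells holding 10 or more per 10000 of the retinal genes summed above were then left out, a limit added after seeing the data. *Six3os1*, *Aqp1* and *Slco1a4* came, with 10 CPM added, to 2.78, 2.51 and 1.93 in *Ctnnb1* cKO, against 2.66, 2.35 and 1.74 with all cells. In *Tspan12* KO they came to 4.71, 3.05 and 3.43, against 4.53, 3.12 and 3.36. Of the eye field and progenitor genes *Dkk3* and *Hes1* were higher in *Tspan12* KO and *Dkk3* and *Otx2* in *Ctnnb1* cKO, while *Pax6* was at 19.9 against 7.35 and 17.02 against 9.92 CPM.

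Of the remaining lists, Müller glia markers had 2 of 8 and 1 of 9 genes higher, amacrine markers 1 of 3 lower in *Tspan12* KO and 1 of 3 higher in *Ctnnb1* cKO, cone and bipolar markers 0 of 5 and 1 of 3 higher, and astrocyte markers 1 of 2 lower and 1 of 2 higher. Of mural markers 1 of 7 was past 2-fold lower in *Tspan12* KO and 0 of 5 in *Ctnnb1* cKO. They summed to 665 against 431 CPM in *Tspan12* KO, mostly *Rgs5* at 527 against 296, and to 150.3 against 209 in *Ctnnb1* cKO. Microglia markers summed to 133 against 135 and 741 against 807 CPM, and lymphatic and pigment cell markers had 0 of 1 past 2-fold in each library. The part of these cell types in the differences was not tested.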

How the data were processed

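Retinal cells of mice at postnatal day 6 were profiled in 3 libraries of 10x 3′ single-cell RNA sequencing, 1 per genotype. The authors deposited raw UMI counts per gene and barcode, from Cell Ranger 8.0.1 per the file headers. The submitters' processing notes name GRCm39, the methods another build, so no coordinate of the files is used. Barcodes numbered 9951 (WT), 14426 (*Tspan12* KO) and 9151 (*Ctnnb1* cKO). No doublet was removed before the comparisons. Scrublet (scanpy 1.11.5) called 0, 2 and 336 doublets by its automatic threshold, which did not work in the first 2 libraries, so an alternative left out the highest scores at 0.8% per 1000 cells.

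The counts were summed over cells and scaled to CPM, with exact Poisson intervals for levels, exact conditional binomial intervals for ratios and Clopper-Pearson intervals for shares (scipy 1.17.1, numpy 2.4.6, Python 3.11.15). A gene was past 2-fold where log2 of CPM plus 10 differed by at least 1, among genes with at least 50 UMIs. This scale understates changes of low genes. A count of 0 was read against a floor of 3 UMIs. Thinned cells held 2000 UMIs, drawn with a fixed seed. Alternatives were Six3-0 cells within the *Plvap* and cycling limits, deeper cells, thinning, TMM scaling (edgeR 4.0.16 in R 4.3.3), a mean over cells, a pseudocount of 2, no minimum of UMIs, other *Six3* limits, doublet removal and limits on other genes.

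Named genes were the genes of the rule, of 33 lists, and the 15 higher and 10 lower genes largest in both knockout libraries by the smaller of the 2 ratios, unnamed gene models left out. The members, lists and tests were chosen with earlier results of these data known. The contrast was checked on simulated counts. No group was compared by a test, since each genotype had 1 library. Some items are not reported here.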

Additional observations from a re-analysis of the deposited data

Results flagged for a closer look

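Haemoglobin genes differed in opposite directions in the 2 knockout libraries, which is why they are listed here. The log2 ratio of Six3-expressing over Six3-0 ECs, with 10 CPM added, was -4.17 for *Hba-a2*, -5.45 for *Hbb-bs* and -4.27 for *Hbb-bt* in the *Tspan12* KO library. In the *Ctnnb1* cKO library it was 1.89, 1.35 and 1.98 for the same genes. The erythrocyte markers summed to 38.7 CPM in *Tspan12* KO members against 2441 in Six3-0 ECs, and to 945 against 373 in *Ctnnb1* cKO. The difference between the libraries was not tested. With cells at 5 or more per 10000 of these markers left out, a limit added after seeing the data, *Hbb-bs* came to 0.07 in *Tspan12* KO and *Hba-a2* to -0.14 in *Ctnnb1* cKO.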

How the results depend on the processing

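No paired analysis was possible because each genotype had 1 library and all replicate numbers were 1. The share of Six3-expressing ECs, in the order WT, *Tspan12* KO and *Ctnnb1* cKO, was 15.1, 26.7 and 28.6% with at least 1 *Six3* UMI and 0, 1.60 and 7.47% after thinning to 2000 UMIs. It was 13.6% with at least 3 *Six3* UMIs and 21.7% in cells of at least 3000 UMIs in *Ctnnb1* cKO, and in WT 0.377% with retinal genes under 10 per 10000 and 0.355% with endothelial genes at 20 or more, both chosen after seeing the data. In each of these settings the 3 libraries kept their order.

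Counts of genes past 2-fold moved with the setting. Against Six3-0 cells within the limits, 157 were lower in *Tspan12* KO, 89 in *Ctnnb1* cKO and 57 in both. In cells of at least 3000 UMIs, 164 were higher in *Ctnnb1* cKO. After thinning, 68 were higher and 130 lower in *Tspan12* KO and 15 higher and 26 lower in both. By the mean over cells, 44 were higher in *Ctnnb1* cKO and 29 in both. With a pseudocount of 2, 388, 280 and 101 were higher in *Tspan12* KO, *Ctnnb1* cKO and both, and 496, 331 and 229 lower.

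Of 125 named values past 2-fold, 108 to 125 stayed past it under the 12 alternatives. Those that turned were *Esm1* in *Tspan12* KO (0.11) and *Hbb-bs* in *Ctnnb1* cKO (-0.064) after thinning, *Hbb-bs* by the mean over cells (-0.00186), *Nlgn1* in *Tspan12* KO with the highest doublet scores left out (-0.27), and, with erythrocyte markers limited, *Hbb-bs* in *Tspan12* KO (0.075) and *Hba-a2* in *Ctnnb1* cKO (-0.14). The cause was not tested. The planned limit on rod, amacrine and Müller glia genes left 4, 0 and 38 ECs and gave no value, since its lists hold genes that ECs use.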
